A study of Gossypium hirsutum with 7 samples.

Results

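Cotton ovules carrying a GhHD-1 over-expression transgene were set directly against ovules in which GhHD-1 was silenced, using every array whose title names one of those transgenic groups. That made 5 of the 7 arrays of the series: 3 of GhHD-1 over-expression and 2 of GhHD-1 silenced ovules. The remaining 2 arrays, of wild-type ovules, stayed out of the fit and are given only as levels beside them. All plants were Gossypium hirsutum, the tetraploid upland cotton, and whole ovules were taken at 0 days post anthesis, the day the flower opens. Within a group the arrays are labelled as biological replicates. They do not name the promoter behind either transgene, nor whether a group is a single line or several, and the level of GhHD-1 itself is not reported here because no probe set was annotated as it.

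GhHD-1 belongs to the class IV homeodomain leucine zipper proteins, plant transcription factors that act in the outermost cell layer and in Arabidopsis include regulators of leaf hairs. A cotton fibre is a single epidermal cell of the ovule that swells outwards at anthesis and then elongates, and the start of this outgrowth involves MYB and homeodomain factors, wall loosening by expansins, ethylene, reactive oxygen and a supply of wall and membrane material. Each ovule sample also holds the inner tissues, so fibre cells make up a minority of it. In such bulk RNA a smaller number of cells of a type and less RNA per cell cannot be told apart.

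The deposited values were log2 intensities per probe set, so a difference of 1 is a factor of 2. Some features of the arrays bear on everything that follows. The silenced arrays lay close together (r = 0.9969 across probe sets), and the median SD of a probe set was 0.140 in over-expression, 0.0821 in silenced and 0.165 in wild-type ovules. Over-expression replicate 2 stood apart from the others of its group: 477 probe sets read at least 1 log2 unit higher there than in the mean of the other over-expression arrays, against 13 for replicate 1 and 58 for replicate 3. In the other direction replicate 1 led, with 290 probe sets at least 1 log2 unit below the mean of the others, against 142 for replicate 2 and 70 for replicate 3. Wild-type replicate 1 resembled the silenced arrays more than it did wild-type replicate 2, which resembled over-expression replicates 1 and 3.

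Markers of the tissue were checked first. Floral MADS-box genes were bright in all transgenic arrays, MADS-1 at 13.57 to 13.65 in over-expression and 13.56 and 13.60 in silenced ovules. The early fibre gene E6 read 9.73 to 10.62 in over-expression and 9.69 and 9.85 in silenced ovules. Genes of maturing embryo were not uniformly low: vicB_At, a seed storage globulin, read 3.07 to 3.63 in over-expression and 3.33 and 3.34 in silenced ovules, and the legumin LegA 3.97 to 4.32 over the 5 arrays. In contrast, a probe set of the legumin gene LEGB read 9.73 to 9.92, Lea5-D 10.46 to 11.32 and Lea14-A 6.88 to 8.70 over the same arrays. The other LEGB probe set read only 3.10 to 3.40, so the sets of that gene disagree. The Rubisco activase RCA1, for green tissue, lay between 5.27 and 5.61 over the 5 arrays, and the pollen gene G9 between 3.83 and 4.46. For scale, 5% of the probe sets of an array read below 3.50 to 3.67.

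Over-expression and silenced ovules differed at 238 of 23977 probe sets by limma (adjusted p under 0.05, 0.993% of those tested), with 112 higher (0.467%) and 126 lower (0.526%) in over-expression. Falls were the larger changes: 22 probe sets fell at least 4-fold and 10 rose at least 4-fold, while 91 fell and 62 rose at least 2-fold. The median size was 1.15 on the log2 scale, and the range ran from a fall of 15.1-fold to a rise of 9.18-fold. The groups did not overlap at any of the 238. By lack of overlap alone, 17.8% of all probe sets had every over-expression array above both silenced arrays and 16.1% had every one below. Unadjusted p lay under 0.05 at 4054 probe sets, and 0.0104 was the lowest adjusted value.

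**Figure D1:**
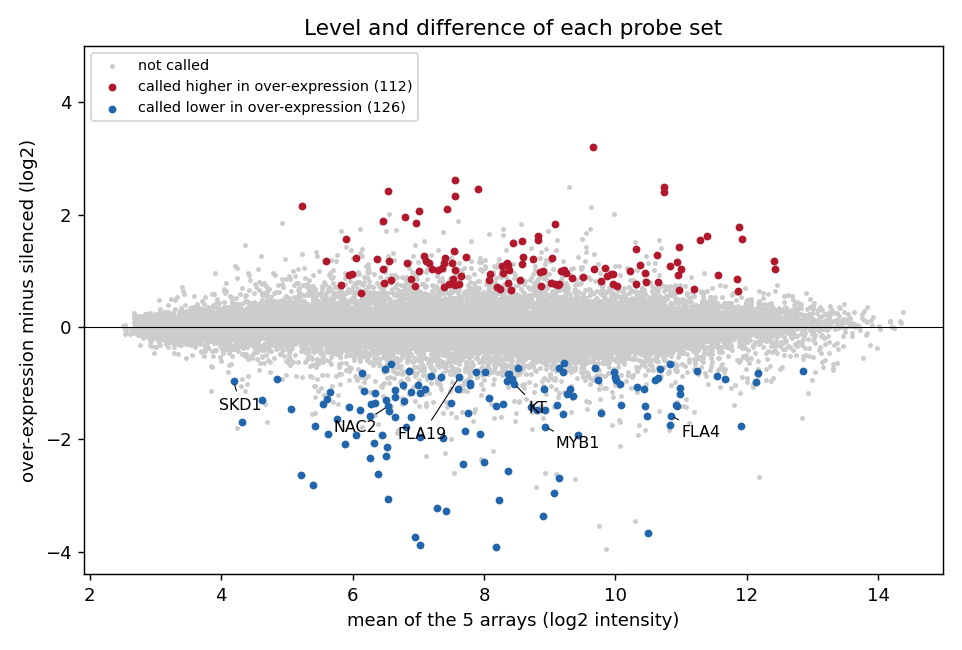
Log2 difference of over-expression minus silenced (vertical axis) against the mean log2 intensity of the 5 arrays (horizontal axis) for each of 23977 probe sets. Red points are the 112 called higher in over-expression, blue points the 126 called lower, grey points the rest; the 6 named genes that were called lie among the blue points.

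This count rests on the arrays together. No probe set was called once over-expression replicate 1, silenced replicate 1 or silenced replicate 2 was dropped (0 calls each by limma, with 3551, 2706 and 2405 probe sets at an unadjusted p under 0.05), and 4 were called without over-expression replicate 3. Without over-expression replicate 2 there were 768 calls, which include all 238. Without a silenced array, the one left is assumed to vary like the over-expression arrays. With the wild-type arrays in the fit the count was 5.

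Most of what changed cannot be named. The platform annotation lists 1 gene for 11 of the 238 probe sets, several genes for 1 and none for 226, and 6 of the 11 have a name beyond a locus number. Calls were spread over probe sets designed from different cotton sequences, with 1.03% called among those with the prefix Ghi, 1.22% with GhiAffx, 0.876% with Gra and 0.576% with GraAffx. Called probe sets were somewhat brighter than average, with a median level of 8.26 against 7.62 for all tested. Of the called, 37.8% end in _s_at, a suffix for sets whose probes match more than 1 related transcript, against 38.7% of all tested, so copies from the A and D genomes may be mixed in a value.

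All 6 named genes that were called fell in over-expression ovules, beside 126 of all 238 calls. Of the 324 named probe sets, called or not, 184 lay above 0 and 140 below. MYB1, of the family that includes the regulators of trichome and fibre outgrowth, read 7.90, 8.69 and 8.06 in over-expression, against 10.00 and 9.99 in silenced ovules. It was 3.42-fold lower (log2 difference -1.78, SE 0.24, limma adjusted p = 0.0457), and the silenced arrays were nearly equal while over-expression replicate 2 lay closest to them. Of the wild-type arrays, replicate 1 at 9.0 lay between the transgenic groups and replicate 2 at 8.08 within the over-expression range.

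NAC2 encodes a NAC factor, a plant-specific family with roles in stress and in secondary wall formation. Its probe set Ghi.3264.1.S1_s_at read 5.63, 6.14 and 6.15 in over-expression, against 7.53 and 7.24 in silenced ovules (log2 difference -1.41, SE 0.20, limma adjusted p = 0.0488). The second NAC2 probe set read 6.33, 6.99 and 7.33 in over-expression, against 8.34 and 8.50 in silenced ovules. Its difference of -1.54 was as large, but with an SE of 0.29 it missed the threshold (adjusted p = 0.0790). Wild-type ovules read 7.70 and 6.82 at the first set, one of them above both silenced arrays.

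The fasciclin-like arabinogalactan proteins FLA4 and FLA19 are glycoproteins of the cell surface, a family expressed in growing fibres and stems. FLA4 read 10.10, 10.63 and 9.91 in over-expression, against 11.82 and 11.77 in silenced ovules, 2.98-fold lower (log2 difference -1.58, SE 0.22, limma adjusted p = 0.0488). FLA19 at GhiAffx.6110.2.S1_x_at read 7.21, 7.37 and 7.20 in over-expression, against 8.21 and 8.11 in silenced ovules (log2 difference -0.90, SE 0.10, limma adjusted p = 0.0371). The other FLA19 probe sets differed by -0.96 (adjusted p = 0.0655) and -1.07 (adjusted p = 0.103), also with no overlap, so the 3 sets gave like sizes. Of the 19 probe sets of the family, 14 lay below 0, beside 11304 of all 23977. Among them 2 were called lower and none higher (0.526% and 0.467% of all probe sets). On every over-expression array 4 were lower and none higher (16.1% and 17.8% of all probe sets). The family median was -0.08, beside 0.0145 for all tested probe sets. FLA6 lay on the other side, at 0.31 and 0.17.

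KT, whose role the annotation does not give, read 8.04, 7.86 and 8.27 in over-expression, against 9.01 and 9.12 in silenced ovules (log2 difference -1.01, SE 0.14, limma adjusted p = 0.0492). Here the wild-type arrays, at 8.06 and 7.83, lay at the over-expression level. SKD1, an AAA-type ATPase of vacuolar sorting, was called at a dim probe set that read 3.72, 3.97 and 3.72 in over-expression, against 4.73 and 4.81 in silenced ovules (log2 difference -0.97, SE 0.12, limma adjusted p = 0.0407). Its brighter probe sets, near 10.5, differed by only -0.11 and -0.08. The sets of SKD1 therefore disagree, and the dim one lies near the floor of the arrays.

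**Figure D2:**
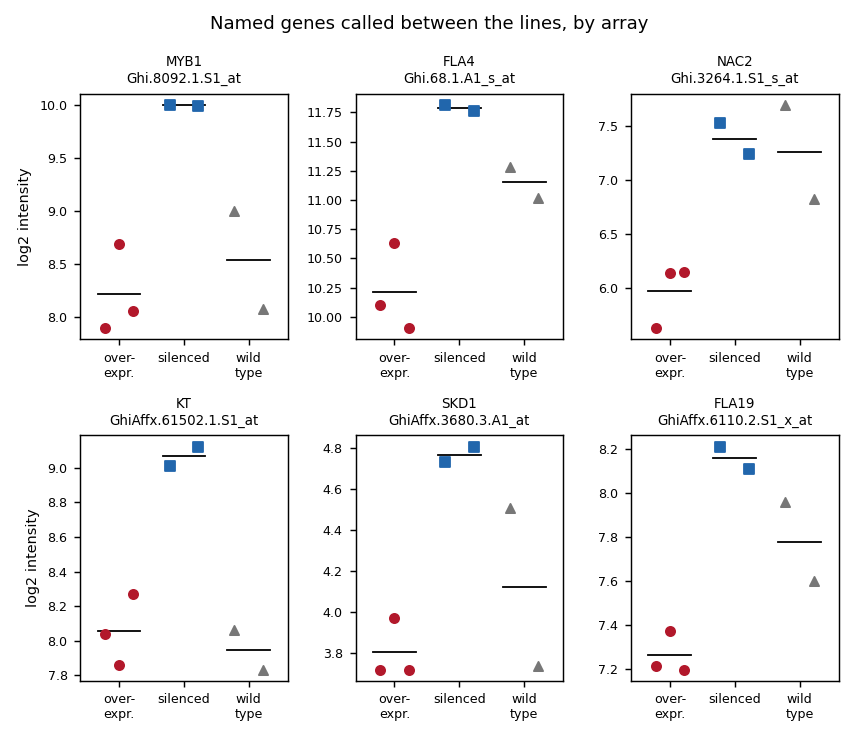
Log2 intensity of the 6 named genes that were called, by array: over-expression (red circles, 3 arrays), silenced (blue squares, 2) and wild type (grey triangles, 2), each with its mean as a bar; the vertical axis of each panel has its own range. In every panel all over-expression arrays lie below both silenced arrays, and the place of the wild-type arrays varies from gene to gene.

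Of the 5 called probe sets with a locus number only, 1 rose. LOC107937363 read 8.35, 9.25 and 9.05 in over-expression, against 6.42 and 6.46 in silenced ovules, 5.46-fold higher (log2 difference 2.45, SE 0.27, limma adjusted p = 0.0366). LOC107946138 read 5.58, 5.23 and 6.19 in over-expression, against 7.82 and 7.80 in silenced ovules (log2 difference -2.14, SE 0.28, limma adjusted p = 0.0422). Wild-type ovules spread widely at this locus, at 9.41 and 6.25. LOC107887166 read 4.27, 4.67 and 4.51 in over-expression, against 5.95 and 5.93 in silenced ovules (log2 difference -1.45, SE 0.14, limma adjusted p = 0.0281), with wild type at 4.72 and 4.61, much closer to over-expression. The bright LOC107950133 and LOC107934283 fell by 0.87 and 0.78 on the log2 scale (limma adjusted p = 0.0488 each). The reference table marks all 5 loci as protein-coding and gives no function for them.

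The largest changes belonged to probe sets with no gene listed. Gra.2938.2.A1_at read 10.88, 10.63 and 11.29 in over-expression, against 7.63 and 7.84 in silenced ovules, 9.18-fold higher (log2 difference 3.20, SE 0.21, limma adjusted p = 0.0168). Ghi.5499.1.A1_a_at read 8.07, 8.73 and 9.02 in over-expression, against 5.91 and 6.06 in silenced ovules (log2 difference 2.62, SE 0.28, limma adjusted p = 0.0347). In the opposite direction, GhiAffx.3815.1.A1_s_at read 6.15, 6.18 and 7.50 in over-expression, against 10.48 and 10.57 in silenced ovules, 15.1-fold lower (log2 difference -3.92, SE 0.43, limma adjusted p = 0.0364). Its wild-type arrays read 12.65 and 5.98, one beyond the silenced arrays and the other below all over-expression arrays. GhiAffx.17865.1.S1_at had a similar layout, with one wild-type array beyond the silenced ones and the other within the over-expression range, at 5.52, 4.99 and 5.93 in over-expression, 9.08 and 9.62 in silenced and 11.26 and 5.55 in wild-type ovules (log2 difference -3.87, SE 0.30, limma adjusted p = 0.0190).

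The direction of that layout was common. At 211 of the 238 called probe sets (88.7%) wild-type replicate 2 differed from wild-type replicate 1 in the direction in which over-expression differed from silenced, beside 62.0% of all 23977. In that same direction, the gap between the wild-type arrays was larger than the gap between the transgenic groups at 71 of the 238 (29.8%). The share over all 23977 was higher, at 41.4%. Among the 22 probe sets that fell at least 4-fold, all 22 had this direction and 18 the larger wild-type gap, with a median gap of 4.93 between the wild-type arrays and 2.75 between the transgenic groups. Among the 10 that rose at least 4-fold, 9 had the direction and 2 the larger gap. Over all 238 called, the median gap was 0.84 in wild type and 1.15 between the transgenic groups, beside 0.23 and 0.14 over all tested.

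Seen from the transgenic groups, the wild-type mean lay between their means at 193 of the 238 called probe sets (81.1%), beside 28.4% of all tested. It was nearer to over-expression at 153 (64.3%), beside 56.6% of all tested, and nearer to silenced at 85. Being between is more likely where the groups are far apart, so that share is a description only. The mean hides a split. Wild-type replicate 1 was nearer to the silenced mean at 155 of the 238 (65.1%), beside 51.5% of all tested. Wild-type replicate 2 was nearer to the over-expression mean at 224 (94.1%), beside 63.4% of all tested. Both held at 146 of the 238, beside 6189 of all 23977. At 78 of the 238 both wild-type arrays were nearer to over-expression, as at KT and LOC107887166, beside 9011 of all 23977. At 9 of the 238 both were nearer to silenced, beside 6163 of all 23977. Across the 238 the over-expression minus silenced difference correlated with wild-type replicate 2 minus replicate 1 at r = 0.808, and across all probe sets at r = 0.467. The points share the arrays' joint normalization, and probe sets are not independent of each other. What made the wild-type arrays differ was not tested.

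**Figure D3:**
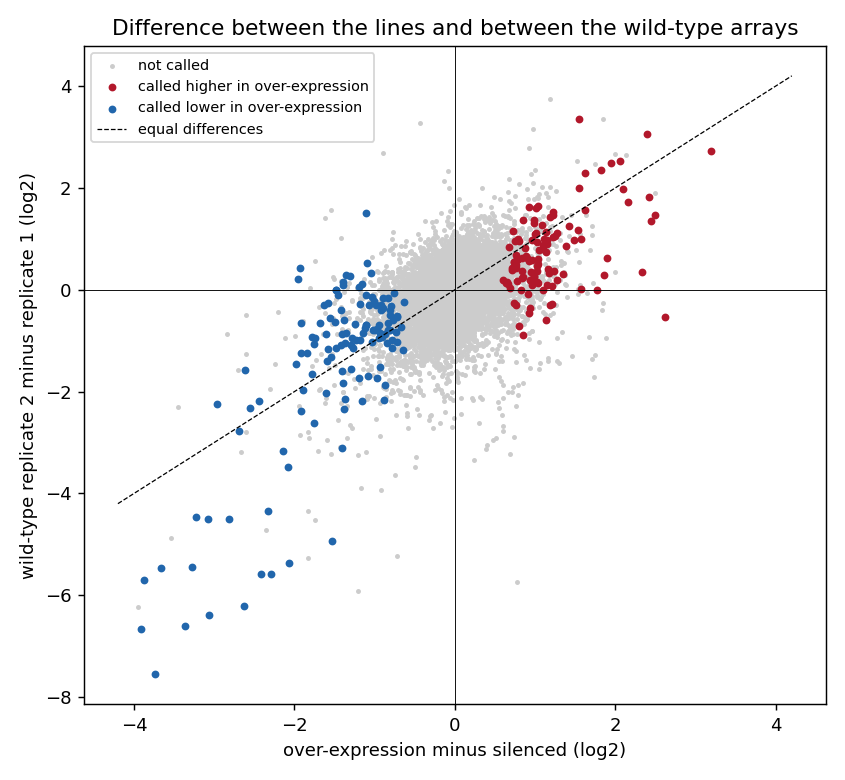
Difference between the wild-type arrays (vertical axis, log2 of replicate 2 minus replicate 1) against over-expression minus silenced (horizontal axis, log2) for each probe set; red and blue mark those called higher and lower in over-expression, and the dashed line marks equal differences. Of the 238 called, 211 lie in the quadrants where both differences have the same sign, and a group at the lower left has wild-type differences larger than those between the transgenic groups.

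Named genes that missed the threshold are given as values, starting with homeobox genes. The homeobox list had 2 members, and they lay on opposite sides. HB4, a homeobox gene, read 8.94, 9.68 and 9.12 in over-expression, against 10.42 and 10.65 in silenced ovules (log2 difference -1.29, SE 0.23, limma adjusted p = 0.0735). HOX3, a class IV homeodomain factor required for fibre elongation in cotton, read 10.90, 10.25 and 10.90 in over-expression, against 9.94 and 10.06 in silenced ovules (log2 difference 0.68, SE 0.22, limma adjusted p = 0.205). Neither overlapped between groups (on every over-expression array, 17.8% of all probe sets were higher and 16.1% lower). In both, over-expression replicate 2 was the array nearest to the silenced ones. Without that replicate the same comparison called 768 of 23977 probe sets. Both were among them, HB4 at -1.50 (limma adjusted p = 0.0155) and HOX3 at 0.90 (limma adjusted p = 0.0239). Dropping the array that stands apart narrows the spread by construction, so these calls are no independent support.

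MYB, bHLH and WD-repeat regulators are the kinds of protein that act together in plant hair formation. Among their 12 probe sets, MYB1 was the 1 called lower and none was called higher (0.526% and 0.467% of all probe sets). The median was 0.28. Every over-expression array was above both silenced arrays at 5 and below both at 2 (17.8% and 16.1% of all probe sets). GHMYB36 differed by 0.45 (limma adjusted p = 0.0999). GHTTG1, the WD-repeat protein of the trichome complex, read 9.68, 9.68 and 9.72 in over-expression, against 9.39 and 9.40 in silenced ovules, a small difference of 0.29 with tight replicates (SE 0.08, limma adjusted p = 0.161). For myb109, a fibre-initiation MYB, replicate 2 of over-expression read 5.60, below both silenced arrays at 6.45 and 6.18, while replicates 1 and 3 read 7.07 and 7.18 above them; it and the gene MYB, which follows, were chosen after their values were seen. MYB read 5.43, 7.91 and 6.0 in over-expression, against 7.81 and 7.90 in silenced ovules.

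NAC factors went both ways, with a median of 0.02. Of 12 probe sets, 1 was called lower and none higher (0.526% and 0.467% of all probe sets). On every over-expression array 2 were higher and 3 lower (17.8% and 16.1% of all probe sets). NAC7 read 9.24, 9.26 and 8.94 in over-expression, against 8.30 and 8.31 in silenced ovules (log2 difference 0.84, SE 0.13, limma adjusted p = 0.0555), the smallest adjusted p among named genes that were not called. Its other probe set differed by 0.22. NAC5, chosen after its values were seen, read 6.41, 8.87 and 6.48 in over-expression, against 9.43 and 9.50 in silenced ovules, so its mean difference of -2.21 came with an adjusted p of 0.230 and replicate 2 stood far above the other over-expression arrays. Of 8 probe sets of other AP2 factors, none was called and the median was -0.17. On every over-expression array 3 were lower and 1 higher (16.1% and 17.8% of all probe sets). All 3 probe sets of RAV1, an AP2 and B3 domain factor, lay lower on every over-expression array, by -2.0, -0.36 and -0.30 (limma adjusted p between 0.292 and 0.342), and the brightest of them read 5.52, 8.35 and 6.24 in over-expression, against 8.66 and 8.74 in silenced ovules. The 5 MADS probe sets ranged only from -0.13 to 0.14.

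Expansins, proteins that loosen the wall so that cells can enlarge, had the highest median of the lists with at least 3 probe sets, 0.79 over 7 probe sets of 4 genes, although none was called. Every over-expression array was above both silenced arrays at 5 of the 7, beside 17.8% of all probe sets. EXPA3D read 9.68, 10.28 and 9.26 in over-expression, against 8.08 and 8.29 in silenced ovules (log2 difference 1.56, SE 0.29, limma adjusted p = 0.0784). A dimmer EXPA3D probe set differed by 0.24 with overlap. The 3 probe sets of EXPA4 differed by 1.10, 0.67 and 0.79 (limma adjusted p of 0.0816, 0.0994 and 0.165). EXPA1, an expansin of elongating fibres, read 9.42, 8.58 and 9.37 in over-expression, against 8.26 and 8.11 in silenced ovules (log2 difference 0.94, SE 0.27, limma adjusted p = 0.167). EXPA11A lay on the other side of 0 at -0.13. Wild type at EXPA4 read 8.99 and 8.56 at the probe set with the largest difference, as high as over-expression, whereas EXPA1 read 8.34 and 9.53, one near each transgenic group.

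**Figure D4:**
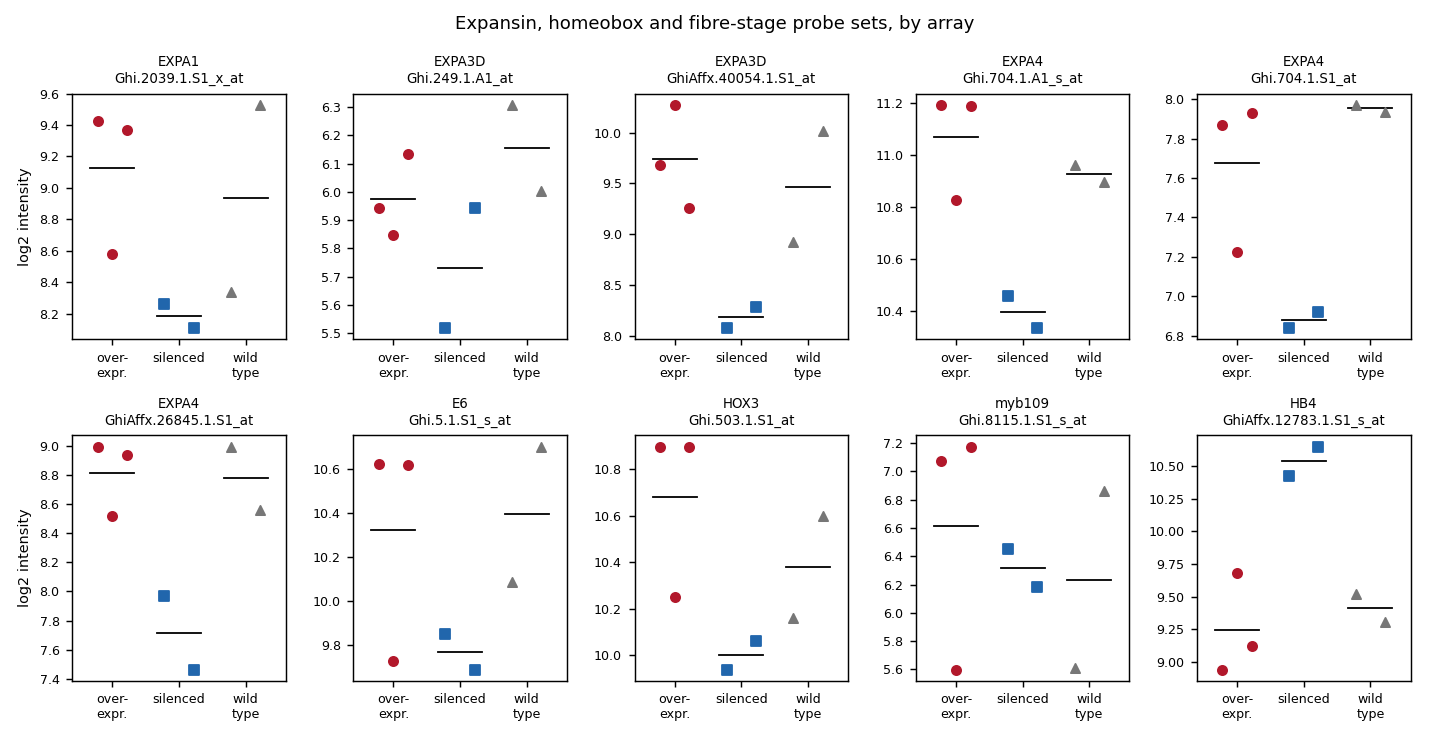
Log2 intensity by array of expansin, homeobox and early fibre probe sets: over-expression (red circles, 3 arrays), silenced (blue squares, 2) and wild type (grey triangles, 2), with group means as bars and a separate vertical range for each panel. The expansin EXPA11A, the only expansin probe set below 0 (-0.13), is not drawn, and only part of the fibre-stage list is shown. Over-expression replicate 2, the middle circle, is the array nearest to the silenced ones for EXPA1, EXPA4, HOX3 and HB4, and lies below both silenced arrays for myb109.

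Without over-expression replicate 2, 5 of the 7 expansin probe sets were called higher (EXPA1 at 1.21, EXPA3D at 1.29 and the EXPA4 sets at 1.25, 1.02 and 0.79, limma adjusted p between 0.0150 and 0.0427), in a fit that calls 351 of 23977 higher. E6 (0.85, limma adjusted p = 0.0295) and myb109 (0.80, limma adjusted p = 0.0486) were called there too. Over all 5 arrays their limma adjusted p were 0.423 and 0.816. In all, 31 of 324 named probe sets, of 28 genes, were called without that array, 16 higher and 15 lower, beside 768 of all 23977. The lower ones were led by NAC5 (-3.02), RAV1 (-2.82), MYB (-2.14), MYB1 (-2.01) and FLA4 (-1.79), the higher ones by the germin-like gene Glp1 (1.75). Over all 5 arrays MYB and Glp1 were not called (limma adjusted p of 0.395 and 0.441), nor were NAC5 and RAV1. Dropping the array that differs most from its group narrows the spread by construction, so these calls are no independent support for the values above.

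The other list of the wall, 24 probe sets for polysaccharide synthesis and remodelling, stayed near 0, with a median of 0.10 and none called. It had every over-expression array higher at 6 and lower at 2 (17.8% and 16.1% of all probe sets). Its smallest p belonged to rgp1, at a dim probe set that read 4.08, 4.14 and 4.08 in over-expression, against 3.58 and 3.44 in silenced ovules (log2 difference 0.59, SE 0.09, limma adjusted p = 0.0601). Brighter rgp1 sets differed by 0.38, 0.87 and 0.58, all 4 with no overlap. The chitinase-like gene CTL1 differed by 0.55 (limma adjusted p = 0.0816). CelA1, a cellulose synthase catalytic subunit of secondary walls, and the pectate lyase Pel differed by 0.17 or less at each probe set.

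The 13 fibre-stage probe sets included HOX3, EXPA1, myb109, E6, CelA1 and Pel from above. As a list they had a median of 0.13 and none called. Of them 3 had every over-expression array above and none had every one below (17.8% and 16.1% of all probe sets). The lipid transfer protein gene LTP3 differed by -0.15 and -0.13, and the arabinogalactan-like gene H6L by -0.41 (limma adjusted p = 0.419). Rac13, a small GTPase linked to the start of secondary walls, stood at -0.04. The 20 cytoskeleton probe sets, which contain Rac13, had a median of -0.0034, with 10 above and 10 below 0. Only the dim beta-tubulin BTub1 had no overlap, at 4.25, 4.21 and 3.90 in over-expression, against 4.67 and 4.53 in silenced ovules. Actin ACT11 differed by 0.27 (limma adjusted p = 0.381).

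**Figure D5:**
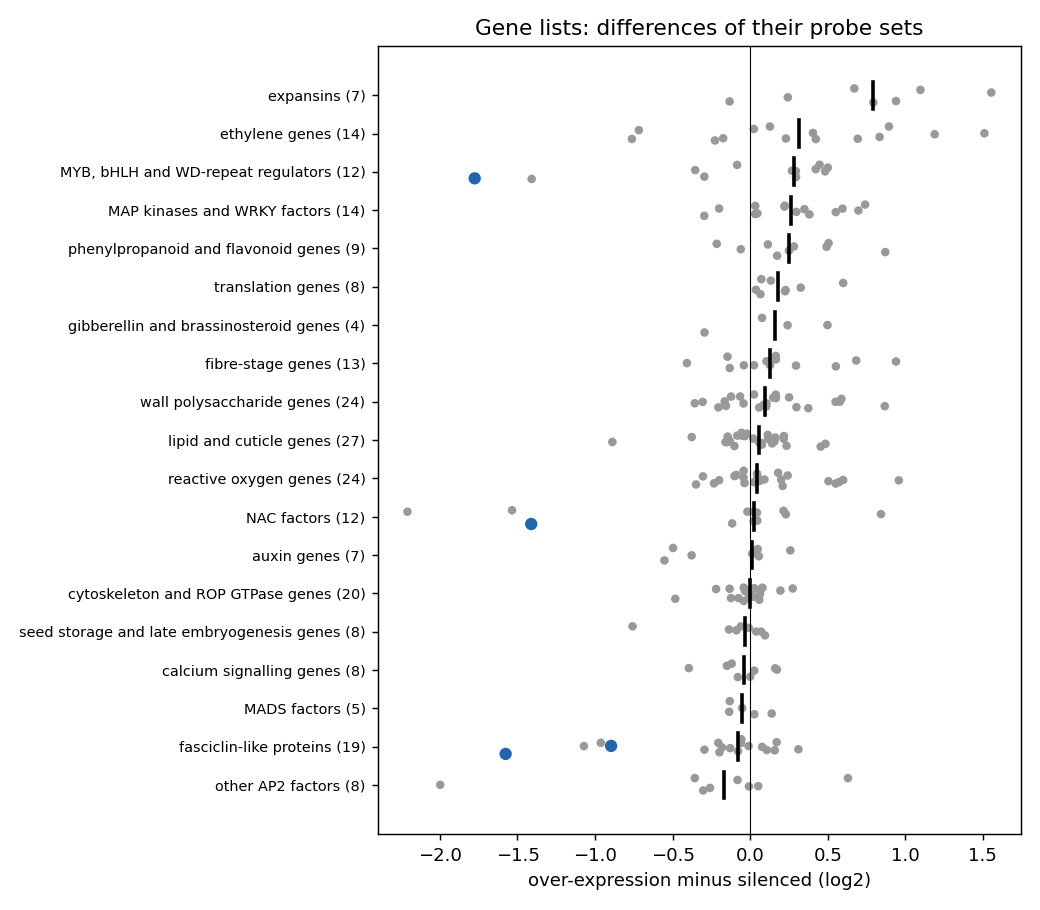
Log2 difference of over-expression minus silenced for each probe set (points) of the gene lists with at least 4 probe sets, the number of probe sets in brackets; the thick bar is the list's median, and blue points were called lower. The expansin median of 0.79 lies farthest from 0, and the next is the ethylene median of 0.32.

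Ethylene, a hormone that promotes fibre growth on cultured ovules, is made from ACC by ACC oxidase. ACO3, an ACC oxidase, read 11.12, 11.27 and 10.31 in over-expression, against 9.35 and 9.43 in silenced ovules, a 2.85-fold higher mean that missed the threshold (log2 difference 1.51, SE 0.29, limma adjusted p = 0.0807). ACO1 did not follow it. One ACO1 probe set read 7.90, 11.84 and 8.51 in over-expression, against 8.33 and 8.12 in silenced ovules, with a high value in replicate 2 alone (log2 difference 1.19, and -0.022 without that array), and another was lower on every over-expression array, by -0.72 (limma adjusted p = 0.158). The ethylene response factors ERF3 and ERF8 differed by 0.69 and -0.76 (limma adjusted p of 0.0761 and 0.119), with no overlap in either. Of 14 ethylene probe sets, none was called and the median was 0.32. Every over-expression array was higher at 4 and lower at 4 (17.8% and 16.1% of all probe sets). ACS3, an ACC synthase chosen after its values were seen, was highest in over-expression replicate 2 as well, at 7.96, 11.29 and 9.37 in over-expression, against 8.62 and 8.68 in silenced ovules.

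Genes of other hormones differed little. The median of the 7 auxin probe sets was 0.01, each with overlap: Aux2 differed by 0.26 and the Aux4 probe sets by -0.55 to 0.06. In the gibberellin and brassinosteroid list, GAI2, a DELLA repressor of gibberellin responses, read 11.36, 11.03 and 11.31 in over-expression, against 10.72 and 10.74 in silenced ovules (log2 difference 0.50, SE 0.13, limma adjusted p = 0.129). The gibberellin receptor gene GID1-4 differed by -0.29 and DET2, a steroid reductase of brassinosteroid synthesis, by 0.24.

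Stress and signalling genes included several that were high in over-expression replicate 2 alone. Of 14 MAP kinase and WRKY probe sets none was called, and the median was 0.26. Above 0 lay 12, beside 12673 of all 23977. Every over-expression array was above both silenced arrays at 6, beside 17.8% of all probe sets. WRKY15 differed by 0.55 and 0.70 at its probe sets (limma adjusted p of 0.137 and 0.223), and MAPKKK by -0.30 and -0.20. Chosen after their values were seen, WRKY24 read 4.46, 8.72 and 6.22 in over-expression, against 5.86 and 5.88 in silenced ovules, and an MPK3 probe set read 7.38, 9.76 and 7.96, against 7.49 and 7.76. On the wild-type arrays the same probe sets read 8.29 and 6.16 for WRKY24 and 10.84 and 7.96 for MPK3, so each was also high on wild-type replicate 1. The WRKY24 difference was 0.60 over all 5 arrays and -0.53 without over-expression replicate 2. In all, 18 probe sets with a gene name were at least 1 log2 unit above the mean of the other over-expression arrays in replicate 2, and 6 were at least 1 below. Calcium genes stayed close to 0, with a median of -0.04 over 8 probe sets. CNGC2, a cyclic nucleotide-gated channel, differed by -0.40, SOS2, a salt-tolerance kinase, by -0.15, and the calcineurin B-like sensor gene CBL1 by 0.16 and 0.17.

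The 24 redox probe sets had a median of 0.05, and none was called. On every over-expression array 7 were higher and 1 lower (17.8% and 16.1% of all probe sets). The glutathione transferase gene GST read 12.95, 12.75 and 13.01 in over-expression, against 12.35 and 12.35 in silenced ovules (log2 difference 0.55, SE 0.11, limma adjusted p = 0.0863). The peroxidases POX5 and pod7 differed by 0.96 and 0.50 (limma adjusted p of 0.127 and 0.251), but a second POX5 probe set differed by -0.04.

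In the flavonoid pathway, which makes pigments and the tannins of the seed coat, the early enzyme chalcone synthase and the late enzyme dihydroflavonol reductase both read higher without passing the test. CHS6 read 5.28, 5.71 and 5.90 in over-expression, against 4.80 and 4.72 in silenced ovules (log2 difference 0.87, SE 0.19, limma adjusted p = 0.106). DFR read 13.24, 13.06 and 13.17 in over-expression, against 12.77 and 12.53 in silenced ovules (log2 difference 0.51, SE 0.11, limma adjusted p = 0.109). CCR1, of lignin synthesis, differed by 0.49. None of the 9 phenylpropanoid probe sets was called, and the CHS2 probe sets ranged from -0.22 to 0.28. Of the 9, 3 were higher on every over-expression array and 1 lower (17.8% and 16.1% of all probe sets).

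The 27 lipid and cuticle probe sets had a median of 0.06, and none was called. On every over-expression array 7 were higher and none lower (17.8% and 16.1% of all probe sets). KCS38, a ketoacyl-CoA synthase that lengthens fatty acids, differed by 0.45, 0.23, 0.07 and -0.10 at its probe sets, CPA-FAS-1, a cyclopropane fatty acid synthase, by 0.49, and ACX, an acyl-CoA oxidase, by 0.22, 0.06 and 0.02. The remaining named genes with the highest or lowest moderated t were PAP10 (0.90, limma adjusted p = 0.0560), CPR2, a cytochrome P450 reductase (0.68, limma adjusted p = 0.0674), bnlghi6313 (0.58, limma adjusted p = 0.0777) and GHPDI12, a protein disulfide isomerase (-0.62, limma adjusted p = 0.0827). At all 4 the groups did not overlap, but they were picked by moderated t between these same groups, so this adds no support.

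Lists not tied to fibre growth give a scale for these medians. The 8 translation probe sets, of ribosomal proteins and elongation factors, all lay above 0, beside 12673 of all 23977. Their median was 0.18, with a smallest limma adjusted p of 0.306 and 1 with no overlap. EF1A7 differed by 0.23 and 0.60 and EF1A2 by 0.33. The median of the 8 seed storage and late embryogenesis probe sets was -0.03, of which Lea14-A at -0.76 had the largest difference, with overlap, and Mat5-D at -0.14 the only separated groups. The 2 histone probe sets differed by -0.04 and -0.01, and the terpenoid gene cdn1 by 0.12. Over all 324 probe sets with a gene name the median was 0.04, with 6 called lower and none higher (0.526% and 0.467% of all probe sets). Every over-expression array was above both silenced arrays at 72 and below both at 46 (17.8% and 16.1% of all probe sets).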

How the data were processed

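Ovule RNA of 7 samples was measured on Affymetrix cotton arrays of a single colour. The authors deposited log2 intensities that run from 2.27 to 14.55. Tools named in the submitters' processing notes are R 2.7.1, limma and RMA, without their role or order. RMA equalises the arrays' distributions, which removes global shifts and compresses dim signals. Of 24132 probe sets, 103 AFFX and 52 RPTR controls were set apart.

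The 3 over-expression and 2 silenced arrays were compared at the other 23977 with limma 3.58.1 in R 4.3.3 (lmFit, eBayes; 3 residual and 2.70 prior degrees of freedom), two-sided, adjusted by the Benjamini-Hochberg method with a threshold of 0.05. The number of arrays limits the precision. The fit was tested on simulated data. The p-values measure the spread between these arrays only, and the labels do not say how many plants each came from.

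The platform annotation listed 1 gene for 697 probe sets, several for 46 and none for 23234. All 697 matched the RefSeq table of Gossypium_hirsutum_v2.1 by gene number, and 324, of 246 genes, had a name. Coordinates are not given because the build of the array design is not stated. Sequences and a planned search of promoters for the L1 box were not analysed here.

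The comparison, the gene lists and the rule for named genes were chosen with earlier results of these data known. The lists were completed by symbol once the annotation's names were seen. The rule names every called gene with a name, the 10 highest and 10 lowest moderated t among named probe sets, up to 3 probe sets with the smallest p of each list with at least 3, called loci (the 5 largest differences each way), the 2 largest differences each way among called probe sets with no gene, and further probe sets of these genes. The processing was varied with replicate numbers as blocks, all 7 arrays in 1 fit, an intensity trend or robust prior, median centring, cyclic loess, probe sets with a mean of at least 5, array weights, a threshold of 0.01 and leaving out each array.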

Additional observations from a re-analysis of the deposited data

Results flagged for a closer look

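A reporter control outside the cotton genes separated the groups. RPTR-Ghi-A06498-1_at read 4.63, 4.66 and 4.39 in over-expression, against 9.99 and 10.15 in silenced ovules, so the silenced mean minus the over-expression mean was 5.51 on the log2 scale. The wild-type arrays read 4.08 and 4.59. This probe set was left out of the comparison, and its signal stood far above the level of the wild-type arrays in silenced ovules only. A second reporter control, RPTR-Ghi-U57609-2_s_at, read 5.91, 8.59 and 8.81 in over-expression, 9.73 and 9.84 in silenced and 5.09 and 11.88 in wild-type ovules.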

How the results depend on the processing

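The count of 238 calls was the least stable result. With the replicate number as a block it was 0 (0 higher, 0 lower), in the fit of all 7 arrays 5 (4 higher, 1 lower), with a robust prior 365 (175 higher, 190 lower), with array weights 1174 (599 higher, 575 lower) and at an adjusted p of 0.01 it was 0 (0 higher, 0 lower). Leaving out 1 array gave 0 to 768 calls, 0 to 351 higher and 0 to 417 lower. Unadjusted limma p under 0.05 still came at 3276 probe sets with the block, and at 3551, 2706 and 2405 without over-expression replicate 1, silenced replicate 1 and silenced replicate 2, the fits with 0 calls. An intensity trend gave 244, median centring 321, cyclic loess 339 and the brighter probe sets alone 297, and of these 221, 238, 237 and 234 were among the 238. The share of calls at which the wild-type arrays differed the same way was 80.0% in the fit of all 7 arrays and, of the 2 left-out fits with any call, 85.9% without over-expression replicate 2 and 100% of 4 calls without over-expression replicate 3. Block and left-out fits have fewer degrees of freedom; the causes of the other shifts were not tested. Deviations of same-numbered arrays correlated weakly, at 0.148 and 0.0537. Only 2 pairs exist and the labels tie no number to a shared batch, so these values cannot decide whether replicate numbers pair the arrays. The called probe sets of MYB1, FLA4, NAC2, KT, SKD1 and FLA19 kept their negative sign under the alternatives run (that of SKD1, too dim, is not among the brighter probe sets), and each lost its call with the block, all 7 arrays, the threshold of 0.01 and all left-out arrays except over-expression replicate 2; KT also did with an intensity trend (adjusted p = 0.0504). Signs were followed for the genes of the rule and for 11 further probe sets named after their values were seen, and turned only at probe sets that were not called. With array weights LEGB came to 0.025, ACX to -0.044 and Aux4 to -0.144 and -0.025. With 1 array left out, WRKY24 ranged from -0.53 to 1.60 and ACO1 from -0.022 to 1.95, both lowest without over-expression replicate 2. Of sets nearer 0, ACX ranged from -0.011 to 0.130 and from -0.118 to 0.103 at the probe sets concerned, Aux4 from -0.245 to 0.267 and from -0.092 to 0.121, CBL1 from -0.055 to 0.401, LEGB from -0.073 to 0.078, POX5 from -0.150 to 0.078 and SKD1 from -0.219 to 0.00047 and from -0.194 to 0.087.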

Other observations

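The poly-A spike controls, added before labelling, averaged 5.34, 5.15 and 5.41 in over-expression, 5.25 and 6.55 in silenced and 5.08 and 8.10 in wild-type ovules over 42 probe sets. The silenced arrays thus differed from each other in the spikes, although they were the most alike of any pair in the cotton genes.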
